A study of Arabidopsis thaliana with 2 samples.

Results

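Arabinogalactan proteins (AGPs) were examined in root tips of Arabidopsis thaliana in a mutant, atphb3, and in Col. The members were all loci whose deposited protein name contains the word arabinogalactan, with the listed transcripts of a locus summed. This gave 51 of the 22937 loci in the table, of which 21 are named as fasciclin-like and 30 are not. The study sequenced 1 library labelled atphb3, a mutant named for PROHIBITIN 3 (PHB3), and 1 library of Col. PHB3 forms part of ring-shaped scaffolds in the inner membrane of mitochondria. Both groups spent 3 days in the cold on Murashige and Skoog medium and were then grown at 20 °C under days of 16 h light and nights of 8 h, without a named treatment. The sampled site was the tip of the primary root, although the extraction protocol also mentions shoots. The labels give neither the kind of atphb3 allele nor the age of the seedlings at harvest.

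AGPs are cell wall and plasma membrane proteins whose proline residues are hydroxylated and then decorated with large arabinose- and galactose-rich glycans in the endoplasmic reticulum and the Golgi. Many are held to the outer face of the plasma membrane by a lipid anchor. Classical AGPs consist almost wholly of a proline-rich backbone, lysine-rich AGPs carry a short basic stretch inside it, and AG peptides are very short versions. Chimeric AGPs join a proline-rich part to a cysteine-containing domain, and fasciclin-like AGPs (FLAs) join it to fasciclin domains, which act in cell adhesion. In roots, members of the family have been linked to cell expansion, root hair growth and growth under salt.

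The library labelled atphb3 held 7384348 counted reads and Col held 7451022. PHB3 itself had 863 reads in the library labelled atphb3 and 915 in Col. The CPM ratio was 0.952 (0.866 to 1.05), an interval that includes 1, so PHB3 gave no check of that label, on which every direction below rests. With 1 library per group there is no replicate error and no test between genotypes. Ratios of single genes are ratios of CPM, counts scaled to equal library totals, and their 95% Clopper-Pearson intervals, given in parentheses, account for the counting of reads alone and set the 2 libraries against each other, not the genotypes. A locus is called measured where either library held at least 50 reads, and higher or lower where its log2 ratio, taken after adding 0.5 reads to each count, reached 2-fold. Abundance is given as the authors' RPKM, which divides by transcript length. In bulk tissue, fewer cells of a type and less RNA per cell cannot be told apart.

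The coding stretch with the most proline codons is shown for the members on which the results turn. Each line gives the 60 in-frame coding bases with the most proline codons, read 5′ to 3′ on the coding strand of the TAIR10.1 genome, with proline codons in capitals. AGP31 and AGP30, the chimeric AGPs, are shown because they had the highest and the lowest ratio of all measured members. AGP10 and AGP1 follow as the classical AGPs with the highest ratios, then the similar AG peptides AGP20 and AGP16, and AGP12 and AGP21, which differed in their ratios, and the most abundant FLA in the library labelled atphb3, FLA2.
AGP31 (chr1:9890490-9890549, minus strand): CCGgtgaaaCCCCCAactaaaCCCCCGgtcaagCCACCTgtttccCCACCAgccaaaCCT
AGP30 (chr2:14294932-14294991, minus strand): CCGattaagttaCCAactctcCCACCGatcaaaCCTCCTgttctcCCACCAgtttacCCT
AGP10 (chr4:5792441-5792500, plus strand): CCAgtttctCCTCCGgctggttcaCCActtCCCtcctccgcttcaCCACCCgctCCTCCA
AGP1 (chr5:25722129-25722188, plus strand): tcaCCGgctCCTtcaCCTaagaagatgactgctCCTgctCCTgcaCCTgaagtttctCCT
AGP20 (chr3:22810525-22810584, minus strand): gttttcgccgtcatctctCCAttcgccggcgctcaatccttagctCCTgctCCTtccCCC
AGP16 (chr2:19019004-19019063, minus strand): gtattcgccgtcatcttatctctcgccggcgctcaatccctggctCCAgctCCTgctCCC
AGP12 (chr3:4409162-4409221, plus strand): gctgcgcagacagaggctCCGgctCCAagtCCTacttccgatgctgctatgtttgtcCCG
AGP21 (chr1:20648682-20648741, minus strand): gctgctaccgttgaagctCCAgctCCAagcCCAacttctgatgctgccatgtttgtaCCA
FLA2 (chr4:7491733-7491792, minus strand): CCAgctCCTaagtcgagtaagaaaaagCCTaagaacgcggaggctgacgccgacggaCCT
The windows of AGP31 and AGP30 held 10 and 9 proline codons, many of them side by side. Those of AGP10 and AGP1 held 9 and 7, in AGP1 mostly set apart by single alanine or serine codons. Those of the AG peptides held 3 or 4 and that of FLA2 held 4, of 20 codons, so these windows are not rich in proline throughout.

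Most measured AGP genes had a higher level in the library labelled atphb3 than in Col, and a single member, AGP30, was at least 2-fold lower. Of the 51 members, 37 were measured. Of these, 15 were at least 2-fold higher, 1 was at least 2-fold lower and 21 lay within 2-fold. Over all 12931 measured loci, 9.74% were higher and 10.1% were lower by the same rule. The log2 ratio was above 0 for 27 of the 37 members and for 54.6% of all measured loci. The median log2 ratio was 0.82 over the measured members, against 0.08 over all measured loci. Summed over all 51 members, AGP transcripts took up 4579 CPM in the library labelled atphb3 and 2781 CPM in Col, a ratio of 1.65 (1.62 to 1.68). AGP5 and AGP41 reached 50 reads in the library labelled atphb3 only, and FLA6 in Col only, so their place among the measured members depends on the direction in which they differ.

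The intervals of neighbouring members often overlapped, at the top those of AGP31 and AGP10. The interval lay wholly beyond 2-fold for 6 members on the higher side (AGP31, AGP10, AGP1, AGP3, AGP15 and FLA2) and for AGP30 on the lower side, against 5.34% and 6.38% of all measured loci. The interval lay above 1 for 26 measured members, below 1 for 3 and included 1 for 8, while over all measured loci it lay above 1 for 37.7% and below 1 for 30.1%. Nearest to the limit among the higher members were AGP2, AGP5, AGP9 and AGP12, with log2 ratios of 1.0, 1.05, 1.06 and 1.10. Nearest to it among those within 2-fold were FLA4 at 0.89 and FLA6 at -0.92. With TMM scaling, which moved the median of all loci to 0.01, AGP2, AGP5 and AGP9 came under 2-fold and 12 members remained above it, while no measured member changed sign.

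**Figure D1:**
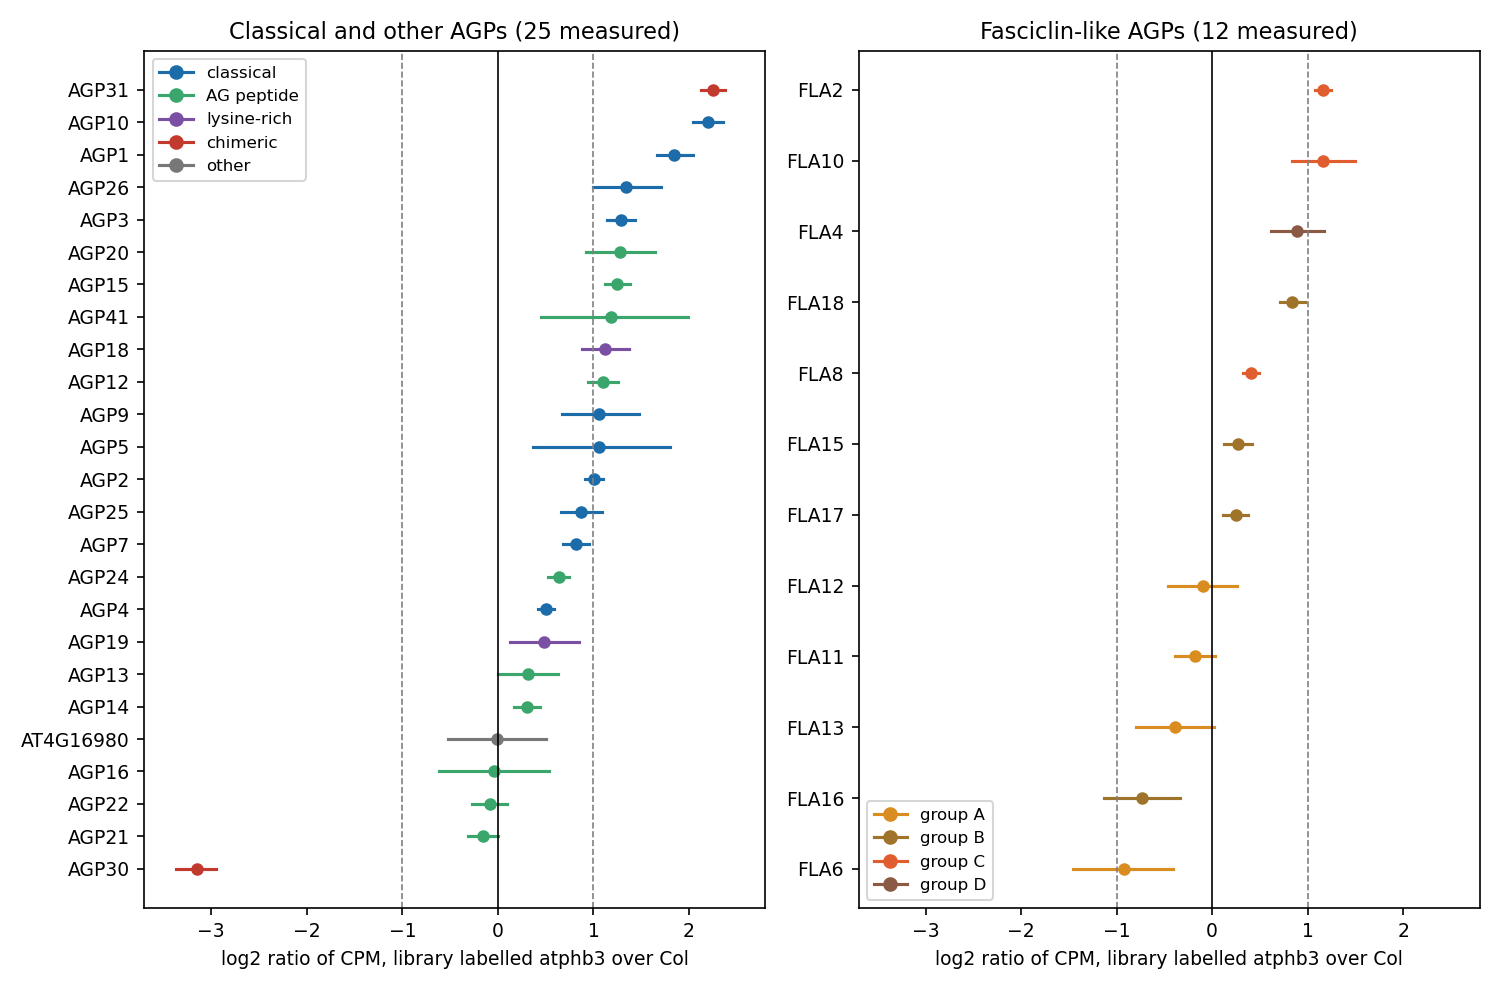
Log2 ratio of CPM, library labelled atphb3 over Col, for each measured AGP gene (points), with the 95% interval for counting error (bars) and dashed lines at 2-fold; classical and other AGPs are on the left and fasciclin-like AGPs on the right, coloured by subclass. AGP31, AGP10 and AGP1 lie farthest right, AGP30 lies alone at -3.15, and the 4 plotted FLAs of group A lie below 0, FLA7 and FLA9 not being members.

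The 30 loci without a fasciclin name held most of the higher genes. Of their 25 measured members, 13 were higher, 1 was lower and 11 lay within 2-fold, with a median log2 ratio of 1.0. Their summed level was 3098 CPM in the library labelled atphb3 and 1806 CPM in Col, a ratio of 1.72 (1.68 to 1.75). Without AGP30, left out after its value was seen, the ratio of the sums was 1.99 (1.94 to 2.03). The FLAs had a lower median, 0.26, and their summed ratio was 1.52 (1.47 to 1.57). Of their 12 measured members 2 were higher and 0 were lower, against 9.74% and 10.1% of all measured loci. With 12 genes, these counts are near the background and are no result about the class.

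Among the classical AGPs, all 10 measured genes of the 13 had a log2 ratio above 0, from 0.51 to 2.19, and 7 were higher, with a median of 1.06. Under TMM scaling 4 were higher and the median was 0.99, while over all measured loci the share of higher loci was then 8.47%. Their summed level was 1628 CPM in the library labelled atphb3 and 785 CPM in Col, a ratio of 2.07 (2.01 to 2.14).

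AGP10 (AT4G09030, chr4:5792207-5792790, plus strand) had 1780 reads in the library labelled atphb3 and 392 in Col. Its CPM ratio was 4.58 (4.10 to 5.12), and its abundance was 413 RPKM in the library labelled atphb3 against 90.1 in Col. With this it ranked among the most abundant AGPs in the library labelled atphb3, although in Col it lay below other classical AGPs such as AGP7 and AGP3. AGP1 (AT5G64310, chr5:25721933-25722646, plus strand) had 1053 reads in the library labelled atphb3 and 295 in Col, a ratio of 3.60 (3.16 to 4.11). AGP26 had 236 and 94 reads in the library labelled atphb3 and Col, a ratio of 2.53 (1.99 to 3.25). AGP3, close in sequence to AGP2, had 1257 reads in the library labelled atphb3 and 520 in Col, a ratio of 2.44 (2.20 to 2.71). These 4 genes stayed at least 2-fold higher under both alternative scalings.

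AGP9 had 162 reads in the library labelled atphb3 and 78 in Col, a ratio of 2.10 (1.59 to 2.78). AGP5 had 54 reads in the library labelled atphb3 and 26 in Col, with the same ratio and a wider interval (1.29 to 3.49). AGP2 had 2923 reads in the library labelled atphb3 and 1470 in Col, a ratio of 2.01 (1.88 to 2.14). All 3 lay so near the limit that the scaling decided their call. AGP2 was, per length, the most abundant AGP in the library labelled atphb3 at 580 RPKM, against 289 RPKM in Col. The other abundant classical gene, AGP4, also known as JAGGER for its part in blocking the entry of further pollen tubes, was within 2-fold. It had 2752 reads in the library labelled atphb3 and 1955 in Col, a ratio of 1.42 (1.34 to 1.51). AGP4 had 477 RPKM in the library labelled atphb3 and 336 in Col, where it was about as abundant as the AG peptide AGP24. AGP25 and AGP7, both within 2-fold, had log2 ratios of 0.87 and 0.82.

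**Figure D2:**
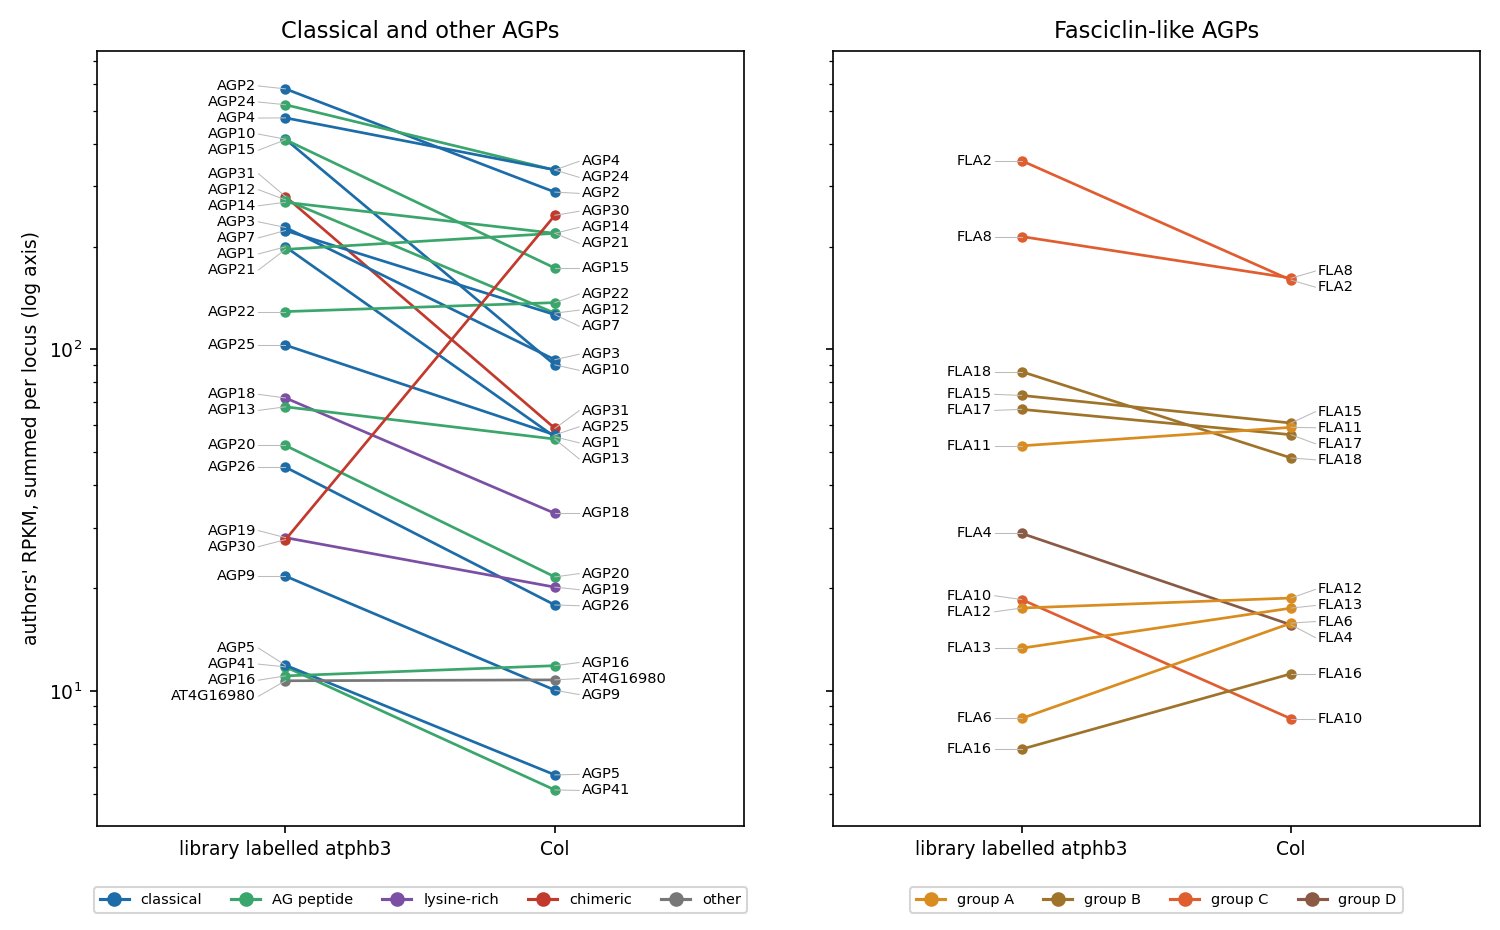
Abundance of each measured AGP gene as the authors' RPKM (log axis) in the library labelled atphb3 (left points of each panel) and in Col (right points), with a line joining the same gene, coloured by subclass. In the left panel the lines of all 10 classical genes run downwards to Col, and AGP30 crosses them in the opposite direction, at 27.7 RPKM in the library labelled atphb3 and 247 RPKM in Col.

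AG peptides ranged from about level to more than 2-fold higher. All 10 loci were measured. Of these, 4 were higher and 6 lay within 2-fold, with 7 log2 ratios above 0 and a median of 0.47. Over all measured loci 9.74% were higher and 54.6% had a log2 ratio above 0, with a median of 0.08. AGP15 had 1646 reads in the library labelled atphb3 and 699 in Col, a ratio of 2.38 (2.17 to 2.60). AGP12 had 1045 reads in the library labelled atphb3 and 491 in Col, a ratio of 2.15 (1.93 to 2.40). AGP20 had 226 reads in the library labelled atphb3 and 94 in Col, a ratio of 2.43 (1.90 to 3.12). These 3 were the higher AG peptides with the most reads. The fourth, AGP41, rested on 50 reads in the library labelled atphb3 and 22 in Col, a ratio of 2.29 (1.36 to 3.98). It reached the minimum of reads in the library labelled atphb3 alone, so its place among the measured genes depends on its direction.

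The most abundant AG peptide, AGP24, had 1715 reads in the library labelled atphb3 and 1114 in Col, a ratio of 1.55 (1.44 to 1.68). It reached 521 RPKM in the library labelled atphb3 and 335 RPKM in Col, which placed it second among the non-fasciclin AGPs in both. AGP14 and AGP21, which have been linked to root hair development, lay within 2-fold. AGP14 had 980 reads in the library labelled atphb3 and 802 in Col, a ratio of 1.23 (1.12 to 1.36). AGP21 had 619 reads in the library labelled atphb3 and 696 in Col, a ratio of 0.897 (0.804 to 1.0). AGP13, AGP16 and AGP22 had log2 ratios of 0.31, -0.04 and -0.09, and the intervals of all 3 included 1.

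The chimeric AGPs stood at opposite ends. AGP31 (AT1G28290, chr1:9889125-9890993, minus strand) had 2971 reads in the library labelled atphb3 and 628 in Col. Its ratio of 4.77 (4.38 to 5.21) was the highest of all measured members, and its abundance was 280 RPKM in the library labelled atphb3 and 58.7 RPKM in Col. Of its 2 listed transcripts the longer one carried nearly all reads, with 2960 in the library labelled atphb3 and 627 in Col. AGP30 (AT2G33790, chr2:14293561-14295271, minus strand), a root gene linked to root regeneration and to the timing of seed germination, had 216 reads in the library labelled atphb3 and 1942 in Col. It was 8.91-fold lower in the library labelled atphb3 (7.74 to 10.3). By RPKM among all AGP loci, AGP30 ranked 27th in the library labelled atphb3 and 4th in Col. The proteins are 359 residues long for AGP31 and 239 for AGP30, and they were 61.5% identical over 239 aligned residues. Lysine made up 14.2% of AGP31 and 12.6% of AGP30, and proline 25.1% and 14.6%. Together the genes took up 432 CPM in the library labelled atphb3 and 345 CPM in Col, a ratio of 1.25 (1.19 to 1.32).

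Among the lysine-rich AGPs, AGP18, known from the selection of the functional megaspore, had 436 reads in the library labelled atphb3 and 202 in Col, a ratio of 2.18 (1.84 to 2.59). AGP19, known from shoot and rosette growth, lay within 2-fold at 155 reads in the library labelled atphb3 and 112 in Col. AGP17, known from the binding of Agrobacterium to roots, had only 5 reads in the library labelled atphb3 and 6 in Col. AT4G16980, which has no symbol, was level at 66 reads in the library labelled atphb3 and 67 in Col.

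The fasciclin-like AGPs are sorted here into the sequence groups A to D in common use for this family. The 2 higher genes were both of group C, of which 3 of 5 loci were measured. Measured log2 ratios ran from 0.40 to 1.16 in group C and from -0.92 to -0.10 in group A as found by the rule. Those of group B, from -0.73 to 0.84, overlapped both. Differences between the groups were not tested. FLA2 (AT4G12730, chr4:7491383-7492876, minus strand) had 3938 reads in the library labelled atphb3 and 1776 in Col, a ratio of 2.24 (2.11 to 2.37). Its abundance was 357 RPKM in the library labelled atphb3, the highest of the FLAs found by the rule, and 159.5 RPKM in Col, just below FLA8. FLA10 had 257 reads in the library labelled atphb3 and 116 in Col, a ratio of 2.24 (1.79 to 2.81). FLA8 (AT2G45470), the sister of FLA10, had 2485 reads in the library labelled atphb3 and 1894 in Col, a ratio of 1.32 (1.25 to 1.41), with 214 RPKM in the library labelled atphb3 and 162 RPKM in Col. Group C as a whole had a summed ratio of 1.78 (1.71 to 1.85). FLA2 carried much of the class sum, since without it the summed ratio of all FLAs was 1.29 in place of 1.52.

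In group D, FLA4, also called SALT OVERLY SENSITIVE 5 and needed for root growth under salt, had 303 reads in the library labelled atphb3 and 165 in Col, a ratio of 1.85 (1.53 to 2.25). In group B, 3 of 4 measured genes had a log2 ratio above 0, at 0.84 for FLA18, 0.27 for FLA15 and 0.25 for FLA17. FLA15, the third by mean RPKM of the FLAs that the rule found, had 868 reads in the library labelled atphb3 and 727 in Col, a ratio of 1.20 (1.09 to 1.33). FLA16 went the other way, with 87 reads in the library labelled atphb3 and 146 in Col, a ratio of 0.601 (0.456 to 0.789).

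The 4 group A genes that the naming rule found had log2 ratios below 0, none of them by 2-fold. FLA11 and FLA12, which act in the secondary walls of fibres and vessels, had 350 and 126 reads in the library labelled atphb3, against 400 and 136 in Col. FLA13 had 90 reads in the library labelled atphb3 and 119 in Col, and FLA6 had 49 in the library labelled atphb3 and 94 in Col. Of these 4, only FLA6 had an interval that left out 1, at a ratio of 0.526 (0.365 to 0.751). Their sum was 83.3 CPM in the library labelled atphb3 and 101 CPM in Col, a ratio of 0.829 (0.743 to 0.923). This direction rests on the naming rule, which missed FLA7 and FLA9 of the same group because their deposited name is spelled arabinoogalactan. With them, added after their values were seen, the sum was 379 CPM in the library labelled atphb3 and 341 CPM in Col, a ratio of 1.11 (1.05 to 1.17).

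The remaining 14 members were not measured. The pollen genes AGP6 and AGP11 had 6 and 1 reads in the library labelled atphb3 and 1 and 0 in Col. FLA1, known from shoot regeneration, had 2 reads in the library labelled atphb3 and 6 in Col. AGP17, AGP27, FLA5, FLA20, AT2G41905, AT4G29980, AT5G16920, AT3G55820, AT1G15190, AT5G26730 and AT4G12950 had between 0 and 28 reads in the library labelled atphb3 and between 0 and 30 in Col. The floor of 3 counts equals 0.406 CPM in the library labelled atphb3 and 0.403 CPM in Col. AT2G41905 and AT4G29980 entered only through the best-match text of their protein name. Of the FLAs missed through their spelling, FLA9 had 2018 reads in the library labelled atphb3 and 1616 in Col, a ratio of 1.26 (1.18 to 1.35), and FLA7 had 162 reads in the library labelled atphb3 and 177 in Col.

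Sister genes with similar proteins often differed in their ratio. Pairs were formed by code among the 51 members alone, so FLA7 and FLA9 could not enter a pair. A pair is a reciprocal best match over the translated RefSeq coding sequences, with at least 80% of the longer protein aligned. This gave 16 pairs, of which 11 had both genes measured, with identities of 56.2% to 87.7%. Within these 11, the log2 ratios lay 0.01 to 1.32 apart, with a median of 0.59, and 7 pairs lay at least 0.5 apart. The most similar pair, AGP20 and AGP16 (87.7% identical), had log2 ratios of 1.27 and -0.04. AGP12 and AGP21 (77.6%) had 1.10 and -0.16, and FLA15 and FLA16 (86.5%) had 0.27 and -0.73. By contrast AGP13 and AGP14 (74.6%) had 0.31 and 0.30, and FLA12 and FLA11 (56.9%) had -0.10 and -0.18. Of the genes named here, AGP16, AGP21, FLA16 and FLA11 overlap a RefSeq gene on the opposite strand, by 228, 364, 1338 and 56 bases. Reads of such overlapping genes cannot be told apart, and their part in these differences was not tested. AGP16 also had only 52 reads in the library labelled atphb3 and 54 in Col. In the coding windows printed above, AGP12 and AGP21 have their 4 proline codons at the same places.

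**Figure D3:**
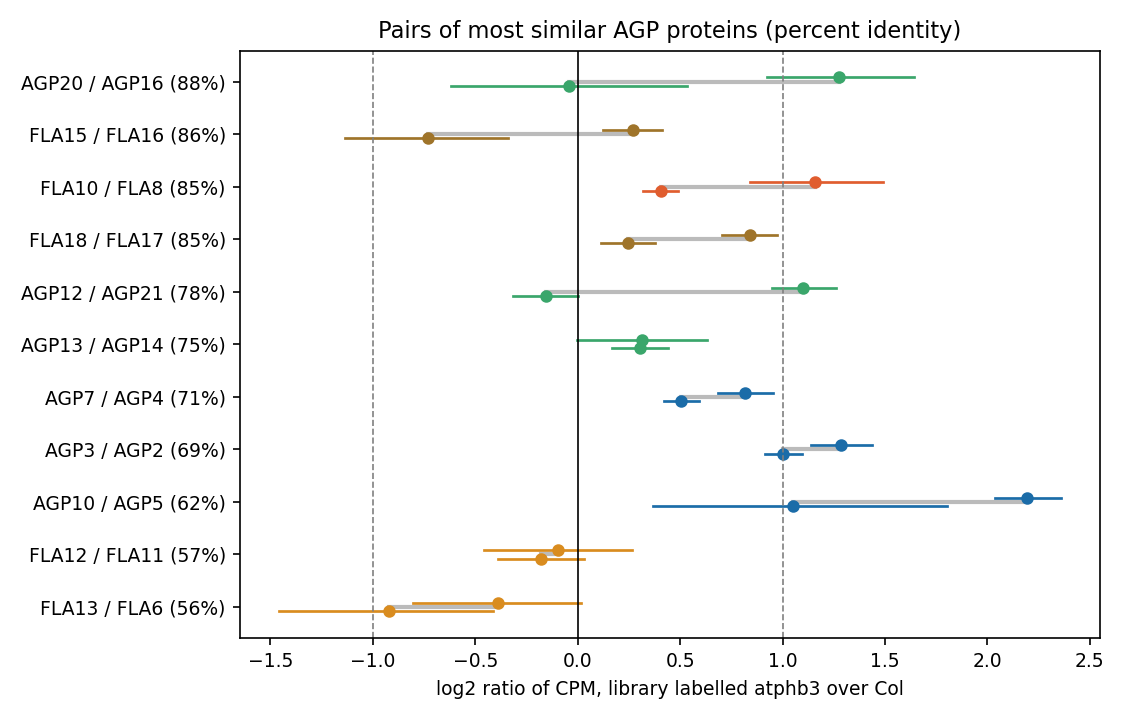
Log2 ratio of CPM, library labelled atphb3 over Col, for the 11 sister pairs with both genes measured, ordered by protein identity (rounded in the labels); in each row the upper point is the gene named first and the lower point its partner, thin bars are 95% intervals for counting error, and the grey bar spans the difference. Pairs near the top are the most similar and still lie up to 1.32 apart, while AGP13 and AGP14 nearly coincide.

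The make-up of the proteins is given as a description, since the classes are defined by it. The share of proline, alanine, serine and threonine had a median of 63.4% in classical AGPs (range 50% to 72.6%), 56.8% in the lysine-rich, 42.5% in AG peptides, 38.9% in the chimeric and 32.0% in FLAs (20.5% to 43.1%). AG peptide precursors were 58 to 74 residues long, classical AGPs 116 to 191 and FLAs 169 to 489. The dipeptides typical of AGP backbones (Ala-Pro, Pro-Ala, Ser-Pro, Thr-Pro and Val-Pro) had a median of 18.1 per 100 residues in classical AGPs and 3.71 in FLAs. Across the 37 measured members, the share of these 4 residues and the log2 ratio had a Spearman correlation of 0.49 and a Pearson correlation of 0.42. Among the 25 without a fasciclin name the values were 0.28 and 0.39. These are descriptions across genes of the same pair of libraries, and related genes are not independent points.

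**Figure D4:**
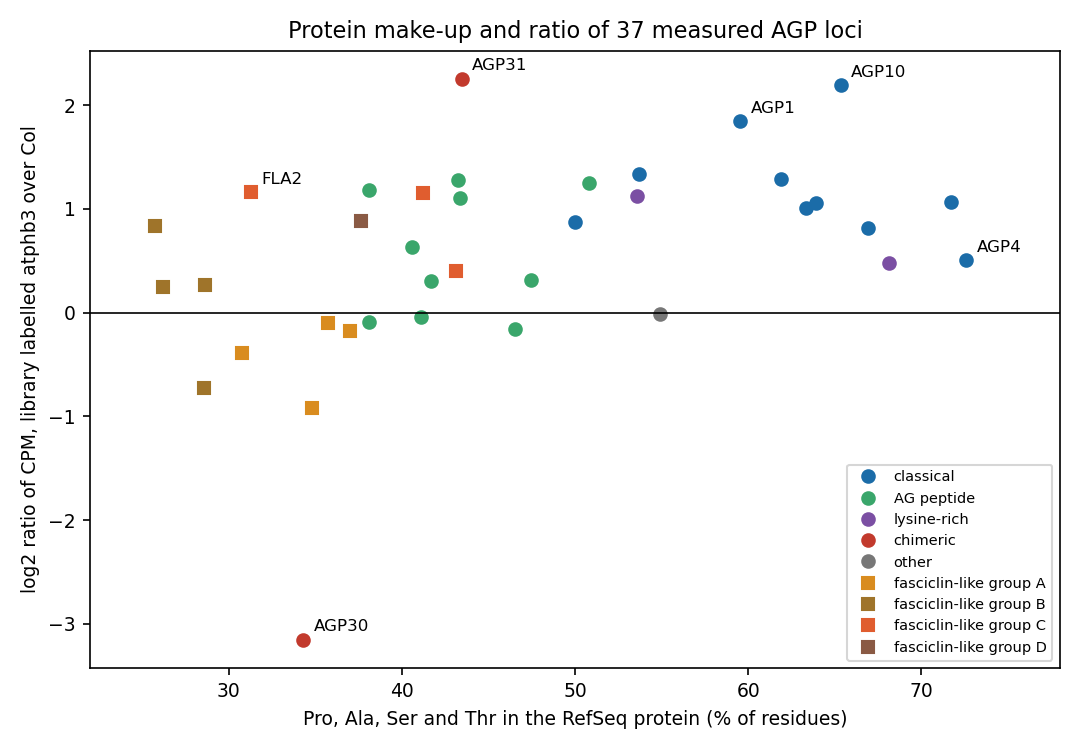
Share of proline, alanine, serine and threonine in the RefSeq protein (percent of residues) against the log2 ratio of CPM, library labelled atphb3 over Col, for the 37 measured AGP genes, with circles for classical and other AGPs and squares for FLAs. All classical genes lie at 50% or more and above 0, although AT4G16980, which is not a classical gene, lies at 54.9% and just below 0. The genes under 50% lie on both sides of 0, with the chimeric AGP31 and AGP30 at the extremes.

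The promoters of the members were searched on both strands, in the 250 bases before each RefSeq gene start, for motifs of factors that act in mitochondrial, clock and stress responses. The mitochondrial dysfunction motif binds NAC factors that act downstream of disturbed mitochondria. It was searched in a loose form that allows any base at its next-to-last place. This form was in 1 of 51 members, or 1.96%, against 1.75% of 27443 promoters of protein-coding genes. That member was FLA2, with a run that matches the motif on both strands and begins 197 bases before the gene start. It is shown because it is the only match of this motif among the AGPs, with the matched bases in capitals.
FLA2 (TAIR10.1, chr4:7493255-7493287, minus strand): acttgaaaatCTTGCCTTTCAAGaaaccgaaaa
The W-box core TTGAC was in 17 of 51 members, or 33.3%, against 44.9% of all promoters, and in 5 of the 15 higher members. The G-box CACGTG was in AGP2 alone, in 2 places, against 6.49% of all promoters. The evening element AAAATATCT and the GCC box GCCGCC had no match in these windows, against 2.36% and 1.87% of all promoters. A match is a run of letters and not evidence of binding, and no match says only that the letters are not in this window.

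Genes for the enzymes that build AGP glycans were counted as well. Of 26 listed genes, 14 could be matched to an annotated symbol and 12 were measured, none of them higher or lower by 2-fold. With 12 genes and shares of 9.74% and 10.1% over all measured loci, a count of 0 is near the background and is no result about these genes, and 12 listed enzymes were not examined. Their median log2 ratio was 0.35, with 9 of 12 above 0 and a range of -0.86 to 0.75. Among them P4H5, a prolyl 4-hydroxylase needed for root hair growth, had 1143 reads in the library labelled atphb3 and 866 in Col, a ratio of 1.33 (1.22 to 1.46). GLCAT14A, which adds glucuronic acid to the glycan, had 683 reads in the library labelled atphb3 and 450 in Col, a ratio of 1.53 (1.36 to 1.73). UGE4, a UDP-galactose epimerase that supplies galactose for root wall polymers, had 430 reads in the library labelled atphb3 and 319 in Col, a ratio of 1.36 (1.17 to 1.58). UGE2, another epimerase, had the highest ratio, 1.69 (1.25 to 2.30), on 119 reads in the library labelled atphb3 and 71 in Col. FUT4, an AGP fucosyltransferase, had the lowest ratio, 0.548 (0.371 to 0.801), on 44 reads in the library labelled atphb3 and 81 in Col.

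Markers of several tissues also differed between the libraries, and their part in the AGP values was not tested. All 8 root hair markers were measured, 4 of them higher, against 9.74% of all measured loci. Their median log2 ratio was 1.08, and their sum was 919 CPM in the library labelled atphb3 and 452 CPM in Col. Of the 8, 7 had a log2 ratio above 0, while RSL4 had 72 reads in the library labelled atphb3 and 81 in Col. LRX2 and LRX1, extensin-like proteins of the hair wall, had 771 and 1701 reads in the library labelled atphb3 and 244 and 762 in Col. Of the 5 root cap markers 2 were measured, BRN2 with 106 reads in the library labelled atphb3 and 40 in Col, and BRN1 with 121 and 69. The cap regulator SMB had 1 read in the library labelled atphb3 and 2 in Col.

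Most vascular markers had log2 ratios below 0. The 8 xylem markers, all measured, had a median of -0.51 and a sum of 436 CPM in the library labelled atphb3 and 704 CPM in Col, with XCP2 at 942 and 1921 reads and the secondary wall synthase CESA4 at 757 and 1250. The regulators VND7 and MYB46 had log2 ratios of 0.36 and 0.17, but their intervals, 0.864 to 1.91 and 0.856 to 1.48, included 1. Neither therefore showed a direction. VND7 reached the minimum of reads in the library labelled atphb3 alone, with 61 reads there and 48 in Col. FLA11 and FLA12, the AGPs of secondary walls, had smaller differences than CESA4. Of 6 phloem markers 4 were measured, 2 of them lower, against 10.1% of all measured loci. The 6 summed to 138 CPM in the library labelled atphb3 and 378 CPM in Col. SUC2, which carried most of this difference, had 73 reads in the library labelled atphb3 and 1107 in Col, and SEOR1 had 305 and 833. By contrast CALS7 was level at 272 reads in the library labelled atphb3 and 270 in Col, and NAC086, not measured, had 41 and 38. Endodermis markers were near level, with a median of -0.05 over 5 measured genes and MYB36 at 358 reads in the library labelled atphb3 and 283 in Col. Shoot photosynthesis genes summed to 482 CPM in the library labelled atphb3 and 1032 CPM in Col, with LHB1B1 at 2 and 455 reads and CAB3 at 4 and 432. LHB1B2 went the other way with 2410 reads in the library labelled atphb3 and 2137 in Col, and it supplied most of the sum in the library labelled atphb3. The pollen markers AGP6 and AGP11 were at or near 0 in both libraries.

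**Figure D5:**
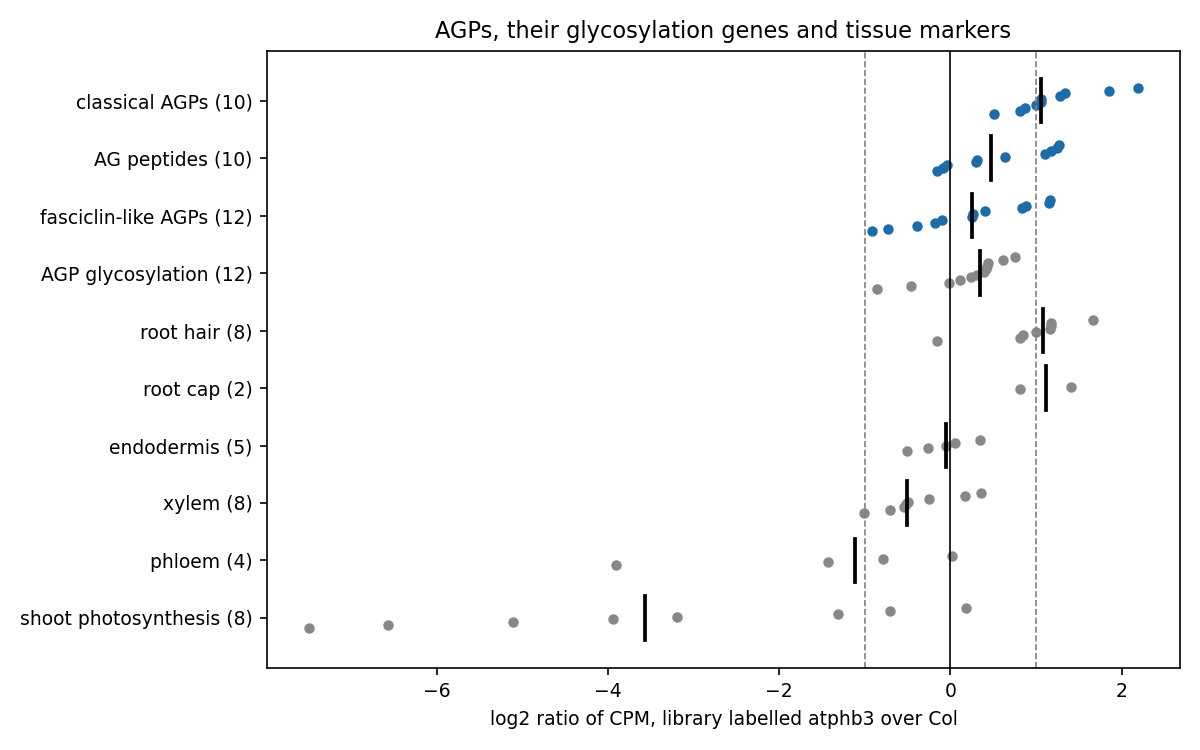
Log2 ratio of CPM, library labelled atphb3 over Col, for the measured genes of AGP subclasses (blue), of the AGP glycosylation list and of tissue marker lists (grey), with the number of measured genes in brackets, a black bar at each median and dashed lines at 2-fold. The classical AGPs have a median of 1.06 and root hair markers one of 1.08, glycosylation genes stay within 2-fold, and phloem and shoot markers extend far to the left.

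Other wall protein families gave a measure of how far the AGP values stood apart, as a description without a test. Of 47 loci with extensin names, 33 were measured, 20 were higher and 1 was lower, with a median log2 ratio of 1.18. Of 51 loci with expansin or xyloglucan endotransglucosylase names, 37 were measured, 8 were higher and 6 were lower, with a median of 0.27. Over all measured loci 9.74% were higher and 10.1% were lower, with a median of 0.08. The median of the measured AGPs, 0.82, lay between these values, and their single lower gene among 37 was a share close to that of the extensins.

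Some AGP values are less certain than their counts imply. Gene spans are quoted as deposited, without a named build, and all 51 fall inside the RefSeq locus of TAIR10.1. AGP9, AGP16 and AGP31 have 2 listed transcripts each, and the sources used here do not say how reads that fit both were assigned. In the RefSeq annotation 9 members overlap a gene on the opposite strand, namely AGP4, AGP10, AGP16, AGP19, AGP21, AGP26, AT4G16980, FLA11 and FLA16. No strand-marking kit is named, so reads of these genes and their partners cannot be told apart. Apart from these overlaps, only FLA8 and FLA10 shared runs of 50 bases with mRNAs of other genes, over at most 0.223% of their length. Transcripts other than mRNAs were not searched.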

How the data were processed

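Per the labels' protocols, RNA of cut root tips was reverse-transcribed from random primers for Illumina sequencing. The authors deposited 1 table of 26425 transcripts with a raw read count and an RPKM value per library, a log2 ratio, and a p-value and false discovery rate of 1 library against 1, which were not used. The values show that the authors' RPKM divides the deposited count by transcript length and column total, with 0 reads listed as 0.01. The aligner, counter and build are not given in the sources used here.

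Counts were summed per locus and scaled to the library total (1 read was 0.135 CPM in the library labelled atphb3 and 0.134 in Col). The members and lists were chosen with earlier results of these data known. Groups came from the sample titles. Named in full were measured members at least 2-fold apart and the 3 most abundant of each class. Further members, and glycosylation genes under 2-fold, were named after their values were seen. Symbols, coding sequences and promoters are from RefSeq for TAIR10.1, in which all 51 listed member spans lay inside their locus. Proteins were translated from the longest coding sequence. Of 26 glycosylation symbols, 12 were not in the annotation and were left out, as were 2 of 4 pollen markers. Alternatives were TMM factors (edgeR 4.0.16), DESeq2 1.42.0 size factors, a nuclear total, the authors' RPKM, other minimums, pseudocounts and fold limits. Calculations were tested on simulated counts. Python 3.11.15, pandas 2.3.3, scipy 1.17.1, Biopython 1.88 and R 4.3.3 were used. The value of 1 endodermis marker is not reported here.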

Additional observations from a re-analysis of the deposited data

How the results depend on the processing

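No paired analysis was possible because each group holds 1 library. Depth limits the 14 unmeasured members, and counting intervals say nothing of the spread between plants. Across scalings, nuclear totals, pseudocounts and the authors' RPKM, no measured member changed sign. For all AGPs, with no minimum on reads 5 were lower and the median log2 ratio was 0.48. It was 0.64 with a minimum of 50 reads on the mean of both libraries, which left 13 of 35 loci higher. The mean log2 ratio over the measured members was 0.57. At a limit of 1.5-fold 3 were lower, at 4-fold 2 were higher, and 6 had an interval wholly beyond 2-fold. Without the fasciclin-like genes, the median was 0.87 with 50 reads on the mean, and 11 of 23 loci were then higher. For these non-fasciclin loci the mean over measured members was 0.74, 2 were higher at 4-fold and 5 had intervals wholly beyond 2-fold. Their summed ratio was 1.64 with TMM and 1.67 with median-of-ratios factors. For fasciclin-like AGPs with no minimum, 4 were higher, 4 were lower and the median turned to -0.10, because 9 loci of few reads entered. With a minimum of 200 reads the median was 0.62. At 1.5-fold 4 were higher and 2 lower, at 4-fold 0 were higher, and 1 had an interval wholly beyond 2-fold. Their summed ratio was 1.45 with TMM, 1.47 with median-of-ratios factors, 1.29 without the most abundant member and 1.46 with FLA7 and FLA9, a setting chosen after seeing the data. That setting turned the summed ratio of group A to 1.11, against 0.829. At 1.5-fold, 2 glycosylation genes were higher and 1 lower. The cause of these shifts was not tested beyond the number of loci each setting admits.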
